A study of Mus musculus with 17 samples.

Results

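Histone H3.3 was examined at 6 genes for transcription factors of lens fiber differentiation, Prox1, Hsf4, Pitx3, Gata3, Sox1 and Foxe3, out of 21938 protein-coding genes annotated by GENCODE M21 on mm10 (GRCm38). The genes were taken by name, and all 6 were found in the annotation. For each gene, the H3.3 islands that overlap the gene body (from the annotated start to the annotated end) or the 20 kb on either side (the flanks) were taken from the lists of 4 ChIP-seq libraries. An island is a stretch of the genome that a peak caller marks as holding more ChIP reads than background.

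Fiber cells arise when epithelial cells at the lens equator leave the cell cycle, elongate, fill with crystallins and lose their nuclei. The 6 genes encode DNA-binding proteins known for roles in this program. Prox1 is a homeodomain protein needed for fiber elongation and crystallin expression, Hsf4 is a heat shock factor that is active in fibers and mutated in inherited cataract, and Sox1 is an HMG box protein that activates gamma-crystallin genes. Gata3 is a zinc finger protein of fiber differentiation, Pitx3 is a paired-type homeodomain protein needed for lens formation, and Foxe3 is a forkhead protein best known for its role in the lens epithelium, and it is lost from the cells that become fibers. H3.3 is a variant of histone H3 whose deposition does not depend on DNA replication, and it is found over promoters, enhancers and the bodies of transcribed genes.

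The libraries came from lenses of CD1 mice, with no genetic change or treatment named, microdissected into epithelium and fiber, with 2 biological replicates of each. Each sample pooled 150 lenses according to the labels, whereas the study's methods give another number of lenses. The labels place the mice at P1 in the titles and at P0.5 in the protocol. Chromatin was immunoprecipitated with an anti-H3.3 antibody. The tissue was measured in bulk, so that more cells carrying H3.3 at a locus and more H3.3 per cell cannot be told apart.

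Fibers had more islands (27059 in replicate 1 and 35940 in replicate 2) than epithelium (10389 and 14434), and more reads in them (5041885 and 5359085 against 1331369 and 1430373). Total reads per library are unknown, so that the compartment and the depth of sequencing cannot be told apart in these totals. Counts of the 6 genes therefore stand beside the share of all protein-coding genes. The median density of islands, in reads per kb of island, was between 27.4 and 28.3 in the 4 libraries. As a check of the dissection, all 5 fiber marker genes (Crygs, Bfsp1, Bfsp2, Mip and Lim2) had an island in both fiber libraries and 2 of 5 in each epithelium library. Of 5 epithelium markers, Cdh1, Pdgfra and Gja1 had an island in both epithelium libraries and Cldn1 and Krt19 in neither. In fibers, 2 and 4 of the 5 had one, Cdh1 and Pdgfra among them in both libraries. Coverage of these 2 epithelium markers was higher in both fiber libraries than in both epithelium libraries, with 17.0%, 26.9%, 41.6% and 48.6% for Cdh1 and 15.2%, 14.4%, 64.5% and 74.5% for Pdgfra in epithelium replicates 1 and 2 and fiber replicates 1 and 2, so that on the measure used below they went the same way as the 5 fiber markers. Markers of pigmented iris (Tyr, Pmel and Mlana), retina (Crx and Nrl) and cornea (Krt12 and Krt5) had no island except Pmel in fiber replicate 2. Of the vessel markers Pecam1, Cdh5 and Kdr, 1 had an island in epithelium replicate 1 and 2 in each other library. Among the macrophage and blood markers Ptprc, Csf1r and Hba-a1, Csf1r had one in 3 libraries. Islands at these markers are not levels of expression, and their part in the results below was not tested.

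The sequences just upstream of 4 gene starts are shown to compare starts that the libraries covered in different ways. The 250 bases before the start were inside an island in all 4 libraries at Pitx3, in 3 at Foxe3, and in fibers but not in epithelium at Sox1 and at the outer start of Prox1. At Prox1, an island of 2000 bp in epithelium replicate 1 covered the GENCODE start and reached 86 bp upstream of it, just short of the window. The inner RefSeq start of Prox1 and its 250 bases lay inside that island. The sequences are RefSeq promoters on GRCm38.p6, written 5′ to 3′ along the gene with CpG dinucleotides in capitals. The table used matched 5 of the 6 genes, without Hsf4.
Prox1, outer start, chr1:190170828-190171077, minus strand: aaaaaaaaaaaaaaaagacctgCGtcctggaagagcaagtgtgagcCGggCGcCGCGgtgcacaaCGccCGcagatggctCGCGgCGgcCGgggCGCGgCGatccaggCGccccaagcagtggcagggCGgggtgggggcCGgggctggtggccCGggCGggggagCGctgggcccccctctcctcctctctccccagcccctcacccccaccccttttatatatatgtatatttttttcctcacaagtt
Pitx3, chr19:46148326-46148575, minus strand: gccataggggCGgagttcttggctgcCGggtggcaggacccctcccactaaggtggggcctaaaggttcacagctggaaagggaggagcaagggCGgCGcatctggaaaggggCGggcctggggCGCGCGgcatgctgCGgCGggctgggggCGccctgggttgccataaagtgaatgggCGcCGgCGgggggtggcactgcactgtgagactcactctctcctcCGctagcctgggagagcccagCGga
Sox1, chr8:12395269-12395518, plus strand: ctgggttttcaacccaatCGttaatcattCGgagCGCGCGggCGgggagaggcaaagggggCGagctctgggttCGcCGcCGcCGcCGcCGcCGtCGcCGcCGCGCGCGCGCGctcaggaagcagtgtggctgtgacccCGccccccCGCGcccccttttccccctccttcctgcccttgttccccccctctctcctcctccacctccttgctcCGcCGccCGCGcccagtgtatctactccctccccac
Foxe3, chr4:114926068-114926317, minus strand: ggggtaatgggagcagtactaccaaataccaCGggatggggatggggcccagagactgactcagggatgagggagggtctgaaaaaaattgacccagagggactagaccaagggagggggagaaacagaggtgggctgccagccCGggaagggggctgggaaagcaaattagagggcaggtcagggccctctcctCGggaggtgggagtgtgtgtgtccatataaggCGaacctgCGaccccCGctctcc

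These promoters differed in CpG content, given here as the observed number of CpG over the number expected from C and G. The ratio was 0.987 at Sox1, with 29 CpG in 250 bases, and 93.6% of 32851 RefSeq mouse promoters lay below it. It was 0.762 at the outer start of Prox1, 0.563 at its inner start, 0.633 at Gata3, 0.569 at Pitx3 and 0.292 at Foxe3, which had 6 CpG. The median over all promoters was 0.373, so that Foxe3 alone of these lay below it. The GC box GGGCGG, searched on both strands, occurred upstream of every start listed here except Foxe3, and in 32.7% of all promoters. The TATA box letters TATAAA occurred once (both strands searched), on the strand opposite to the printed one at the outer start of Prox1, with the leftmost printed base of the match at -34, counted back from the last base before the start, and in 12.4% of all promoters. The heat shock element GAANNTTC, the bicoid-type homeodomain site TAATCC, the GATA site AGATAA and the SOX site AACAAT, all searched on both strands, occurred in none of these windows, and in 6.69%, 6.25%, 9.99% and 9.42% of all promoters.

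In fibers, H3.3 islands filled or nearly filled 5 of the 6 gene bodies. Prox1, Hsf4, Pitx3, Sox1 and Foxe3 were covered over at least 92.1% of their length in both fiber libraries, and Gata3 over 40.1% and 48.5%. In epithelium, the same bodies held separate islands of 800 to 6600 bp or none. Only Foxe3 lay wholly inside an island there, in 1 library. All 6 genes had an island in the body in fiber replicate 1, as had 50.8% of protein-coding genes, and in fiber replicate 2, as had 56.7%. In epithelium replicate 1, 4 of 6 had one (25.8% of protein-coding genes), all but Sox1 and Foxe3, and in epithelium replicate 2, 5 of 6 had one (30.3%), all but Gata3. Gene body coverage was higher in both fiber libraries than in both epithelium libraries at 5 of the 6 genes, against 38.4% of protein-coding genes, and lower at 0, against 0.775%. Among the 13391 protein-coding genes with an island in the body in at least 1 library, 8416 were higher in both fiber libraries. Complete coverage of the body in both fiber libraries was found at Hsf4, Sox1 and Foxe3, 3 of 6, against 4.06% of protein-coding genes. Of the 10550 protein-coding genes with an island in the body in both fiber libraries, 891 were completely covered. Hsf4, Sox1 and Foxe3 are the 3 shortest of the 6 genes (6045, 4832 and 867 bp), where the median protein-coding gene has 17425 bp. A short body is more easily covered whole, and the count was not adjusted for gene length. With 2 libraries against 2, an exact permutation test has 6 splits and its smallest two-sided p is 0.33, so that no gene could pass a threshold of 0.05.

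**Figure D1:**
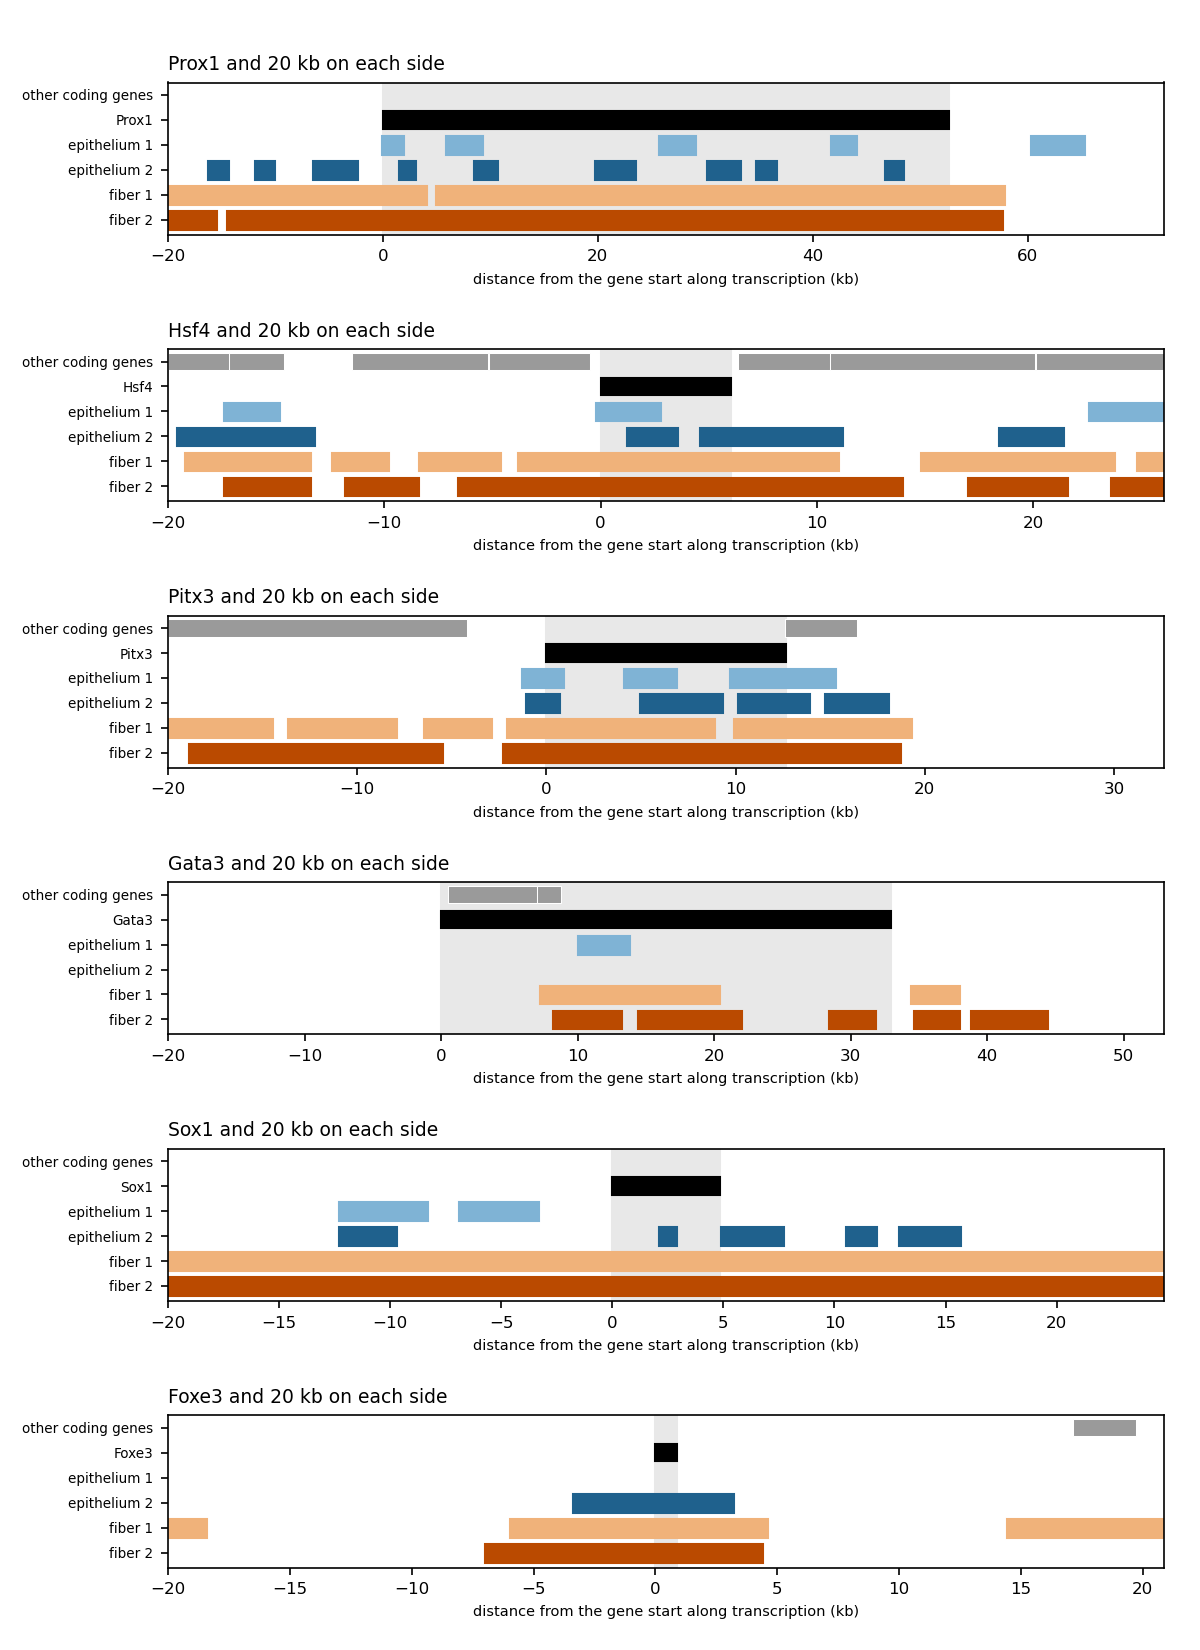
H3.3 islands (bars) of the 4 libraries over each gene (black bar, grey band) and 20 kb on either side, with other protein-coding genes in grey, plotted by distance from the gene start along the direction of transcription in kb. Epithelium shows separate islands of at most 6600 bp, and fibers show long islands that run from the gene into one or both flanks, except at Gata3.

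Prox1, a gene of 52680 bp on the minus strand (ENSMUSG00000010175.13, chr1:190118035-190170714), had scattered islands in epithelium and nearly continuous coverage in fibers. The body was covered over 21.1% and 27.7% of its length in epithelium replicates 1 and 2, and over 98.5% and 100% in fiber replicates 1 and 2. The groups did not overlap, and the difference of the means was 74.8 percentage points (24.4 ± 4.68 against 99.2 ± 1.07, SD, n = 2; exact two-sided permutation p = 0.33). In epithelium, 4 and 6 islands between 1600 and 3800 bp long lay along the body. In replicate 1, the island of 2000 bp covered the annotated start. In fiber replicate 1, an island of 53000 bp with 2232 reads covered most of the gene and a second of 24200 bp with 854 reads covered the start and the upstream flank, with 800 bp between them. In fiber replicate 2, a single island of 72200 bp with 3030 reads ran from 14486 bp upstream of the start to beyond the gene end, and it ranked 8 by length among the 35940 islands of that library. Both long islands had about 42 reads per kb (42.1 and 42.0), more than 98.4% of the islands of fiber replicate 2 and 99.0% of those of fiber replicate 1. Exons were covered over 21.9%, 34.8%, 100% and 100% in the 4 libraries in the same order, and introns over 20.9%, 26.4%, 98.2% and 100%, so that neither class alone held the islands.

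The flanks of Prox1 were uneven in fibers. The 20 kb upstream were covered over 100% and 94.4% in fiber replicates 1 and 2, and the 20 kb downstream over 26.2% and 25.2%. In epithelium, the upstream side was covered over 0.430% and 40.0%, and the downstream side over 25.0% and 0%, so that the replicates differed from each other by more on either side than on the body. The upstream island of the fibers covered part of Prox1os, a noncoding gene on the other strand that overlaps the Prox1 start and was itself covered over 1.07%, 17.0%, 94.5% and 85.1%. Reads at Prox1 and at this partner cannot be separated, because ChIP reads carry no strand of transcription. No other protein-coding gene lies in the flanks.

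Hsf4 (ENSMUSG00000033249.10, chr8:105269801-105275845, plus strand, 6045 bp) was covered over 46.3% and 63.6% in epithelium and over 100% in both fiber libraries, without overlap of the groups (difference 45.0 points, exact two-sided permutation p = 0.33). In epithelium replicate 1 an island of 3000 bp covered the start, and in replicate 2 islands of 2400 and 6600 bp lay inside the gene and across its end. In fibers, 1 island of 14800 bp (539 reads) and 1 of 20600 bp (688 reads) contained the whole gene. These islands also reached into Fbxl8, Nol3 and 4931428F04Rik, and their reads cannot be given to 1 gene. Hsf4 stands in a gene-dense stretch, and coverage was higher in both fiber libraries at 5 of its 7 protein-coding neighbours, the exceptions being B3gnt9 and Nol3, against 38.4% of all protein-coding genes. Fbxl8 and Tradd, upstream, had no island in epithelium and were covered over 82.9% and 100%, and over 77.9% and 71.5%, in fibers. B3gnt9 was covered over at least 93.9% in all 4 libraries.

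Pitx3 (ENSMUSG00000025229.15, chr19:46135685-46148326, minus strand, 12642 bp) was covered over 52.5% and 60.4% in epithelium and 92.1% and 100% in fibers, without overlap (difference 39.6 points, exact two-sided permutation p = 0.33). It was the only one of the 6 genes whose start lay in an island in both epithelium libraries, which held for 6.83% of protein-coding genes. The islands at the start were 2200 and 1800 bp long in epithelium and reached from 1274 or 1074 bp upstream to 925 or 725 bp inside the gene. Exons were covered over 97.2% and 100% in epithelium, where the uncovered parts were almost all intronic. In fibers, islands of 11000 and 9400 bp in replicate 1 and of 21000 bp in replicate 2 covered the gene. The downstream neighbour Elovl3, an enzyme of fatty acid elongation whose annotation overlaps Pitx3 by 10 bp, lay under the same islands and was covered over 70.9%, 78.9%, 100% and 100%.

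The sides of Pitx3 were covered in opposite order in the compartments. Upstream coverage was 6.37% and 5.37% in epithelium and 85.0% and 78.4% in fibers, and downstream coverage was 13.4% and 23.4% in epithelium and 33.4% and 30.4% in fibers. In both epithelium libraries the downstream side was the more covered, and in both fiber libraries the upstream side. The upstream side holds the first part of Gbf1, a long gene on the other strand that was covered over 10.4%, 5.82%, 82.1% and 66.6%.

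Gata3 (ENSMUSG00000015619.10, chr2:9857078-9890034, minus strand, 32957 bp) was the least covered of the genes in fibers. Its body was covered over 11.5% and 0% in epithelium, and 40.1% and 48.5% in fibers, without overlap (difference 38.5 points, exact two-sided permutation p = 0.33). An island of 3800 bp in epithelium replicate 1 was the single one in epithelium. Fiber replicate 1 had 1 island of 13200 bp in the body and fiber replicate 2 had 3, of 5000, 7600 and 3400 bp. Their densities ran from 22.1 to 29.5 reads per kb, around the fiber library medians of 27.4 and 27.5. The fiber islands of 13200 and 5000 bp also reached into 4930412O13Rik and Gm13256, genes on the other strand within the Gata3 model. The island of epithelium replicate 1 covered all of Gm13256. Reads of these islands cannot be given to 1 gene. The upstream flank had no island in any library, and downstream coverage was 0% and 0% in epithelium and 18.0% and 45.0% in fibers. The outer gene start lay in no island, neither that of GENCODE nor that of RefSeq at position 9887953. A further RefSeq start, the one in the promoter table, lies 11434 bp inside the GENCODE model at position 9878600, and it was inside an island in epithelium replicate 1 and both fiber libraries. The first 7234 bp of the GENCODE model held no island in any library. That stretch overlaps 9230102O04Rik, which had no island in any library. With the 10389 densest islands of each library, the Gata3 difference changed direction, to -5.77 points. That number is the whole list of epithelium replicate 1, so that this library was not cut. The change rests on its 1 island at Gata3, which had 27.1 reads per kb, below its library median of 28.3. With the RefSeq body, coverage was 12.3% and 0% in epithelium and 42.8% and 51.8% in fibers.

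Sox1 (ENSMUSG00000096014.1, chr8:12395295-12400126, plus strand, 4832 bp), a gene of a single exon, lay inside the longest islands of the set. Its body was covered over 0% and 16.6% in epithelium and over 100% in both fiber libraries, without overlap (difference 91.7 points, exact two-sided permutation p = 0.33). The island in epithelium replicate 2 was 800 bp long with 39 reads. The fiber islands were 126200 bp long with 4757 reads in replicate 1, which ranked 2 by length in its library, and 129200 bp long with 5084 reads in replicate 2, which ranked 4. They ran from 83894 and 84094 bp upstream of the start to 42305 and 45105 bp downstream of it. Their densities of 37.7 and 39.3 reads per kb exceeded 96.5% and 97.0% of islands. No other protein-coding gene lies under these islands, and the nearest is 114638 bp away. They covered all of Sox1ot, a noncoding transcript of 50998 bp that contains Sox1. Within the reach of the longer one, epithelium replicates 1 and 2 had 8 and 14 islands that covered 29.9% and 33.7% of it. Merged over the 4 libraries, the region at Sox1 was 130200 bp long and ranked 8 by length among 38396 merged regions.

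Foxe3 (ENSMUSG00000044518.3, chr4:114925147-114926013, minus strand, 867 bp), also a gene of a single exon, was covered over 0% and 100% in epithelium and 100% and 100% in fibers. The epithelium replicates disagreed fully, the groups overlapped, and the difference of 50 points (exact two-sided permutation p = 1) rests on epithelium replicate 1. Without that library the difference was 0, and without epithelium replicate 2 it was 100 points. In each library the body of 867 bp lay either wholly inside an island or wholly outside any. The island over the gene was 6600 bp long in epithelium replicate 2, and 10600 and 11400 bp in fiber replicates 1 and 2, and epithelium replicate 1 had none. Flank coverage was 0% and 14.3% in epithelium and 44.5% and 26.3% in fibers. The neighbour Foxd2, another forkhead gene, was covered in fiber replicate 1 only.

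**Figure D2:**
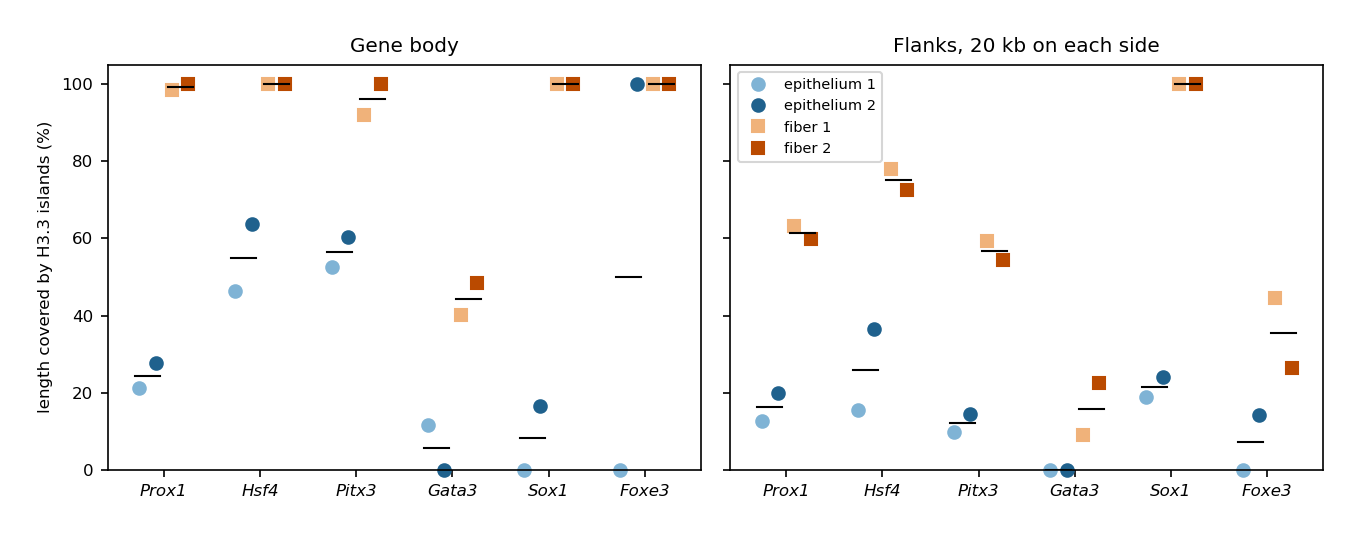
Percentage of the gene body (left) and of the flanks, 20 kb on either side (right), covered by H3.3 islands in each library (circles for epithelium, squares for fiber), with the mean of each compartment as a line. At Prox1, Hsf4, Pitx3, Gata3 and Sox1 both fiber bodies lie above both epithelium bodies, and at Foxe3 epithelium replicate 2 reaches 100% like the fibers.

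Gata3 had the lowest mean body coverage of the 6 genes in fibers. In epithelium the means ran from Pitx3 (56.5% ± 5.59, SD, n = 2) and Hsf4 (55.0% ± 12.2) down to Prox1 (24.4% ± 4.68), and the 2 highest differed by less than their SD. The epithelium replicates of Gata3, Sox1 and Foxe3 included a 0, which leaves their place open. In fibers Hsf4, Sox1 and Foxe3 (100%), Prox1 (99.2% ± 1.07) and Pitx3 (96.0% ± 5.59) were at or near the upper limit of the measure, and differences among them were within the spread. Gata3 lay below all of them. The median of the differences over the 6 genes was 47.5 points. Over the 13391 protein-coding genes with an island in the body in at least 1 library it was 15.1 points, and over all 21938 it was 2.21 points.

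**Figure D3:**
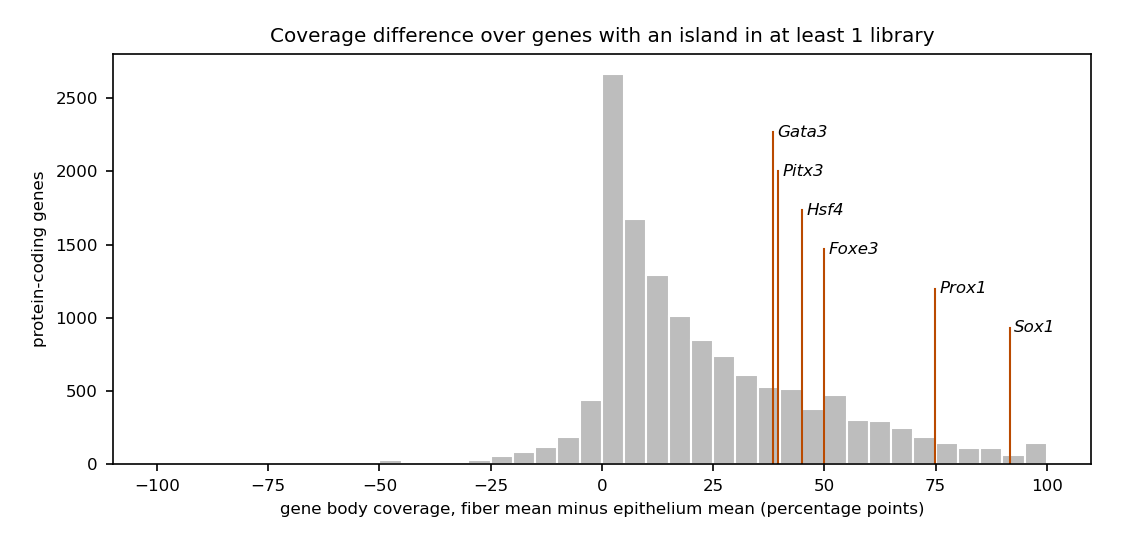
Number of protein-coding genes (vertical axis) by the difference in gene body coverage between the fiber mean and the epithelium mean in percentage points (horizontal axis), for the 13391 genes with an island in at least 1 library, with the 6 genes marked by lines. The bulk of the genes lies near or above 0, with a median of 15.1 points, and the 6 genes lie between 38.5 and 91.7 points.

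Islands at these genes were longer in fibers. The islands that overlap the 6 bodies had medians of 3000 bp (9 islands) and 2400 bp (13 islands) in epithelium, and 14000 and 16000 bp (8 islands each) in fibers. The mean of the fiber medians was 5.56 times that of the epithelium medians. These medians pool islands over the genes, and Prox1 and Pitx3 held most of the epithelium islands. Of 22 islands over these bodies in epithelium none reached 9000 bp, and of 16 in fibers 13 did. Of all islands, 4.08% and 1.97% in epithelium and 16.5% and 10.5% in fibers reached that length. This limit was not among the planned measures, and it fell between fiber islands of 7600 and 9400 bp at these genes. The counts therefore only describe these islands. A long island is also more likely to overlap a gene than a short one, which was not adjusted for. The islands over any protein-coding gene body had medians of 3800, 3000, 5400 and 4200 bp in the 4 libraries. The pooled medians at these genes were thus below that in epithelium and above it in fibers. In epithelium this did not hold gene by gene. In epithelium replicate 2 the median was 2100 bp at Prox1, which held 6 of the 13 islands, and 800 bp at Sox1. It was 4500 bp at Hsf4, 3800 bp at Pitx3 and 6600 bp at Foxe3, above the 3000 bp of that library. Island density was also above the library median for 7 of 9 and 7 of 13 body islands in epithelium, and for 7 of 8 in each fiber library. Long islands tended to be dense at large, since 61.0% and 65.8% of all fiber islands of at least 9000 bp lay above the library median.

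**Figure D4:**
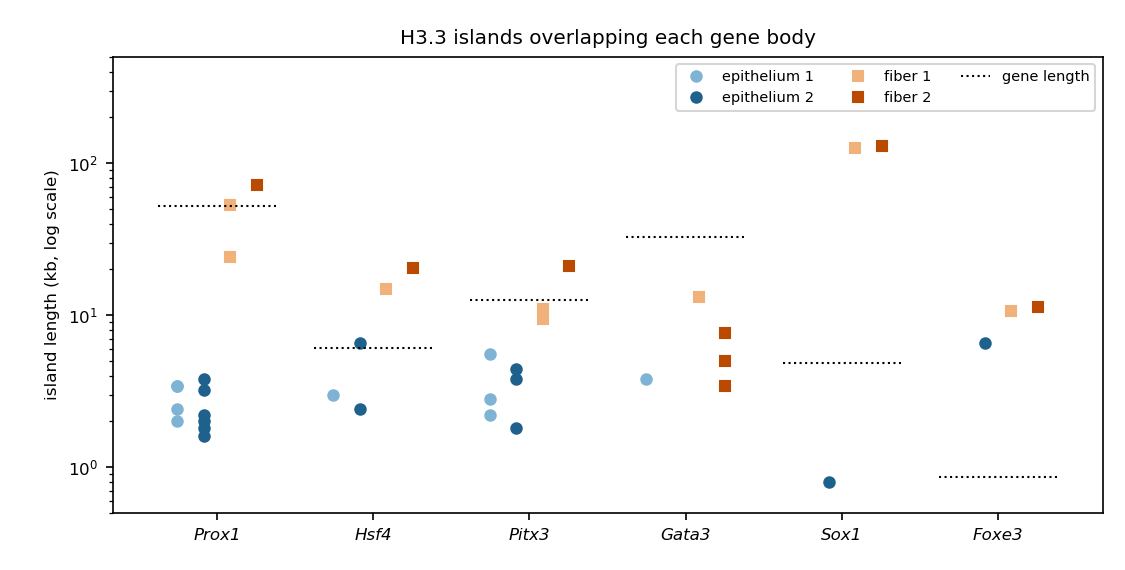
Length in kb (log scale) of every H3.3 island that overlaps a gene body, by gene and library, with the gene length as a dotted line. The fiber islands (squares) lie above the epithelium islands (circles) at Prox1, Hsf4, Pitx3, Sox1 and Foxe3, and at Gata3 the shortest fiber island, 3400 bp, lies below the epithelium island of 3800 bp.

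The gene body was more covered than its flanks in fibers at all of the genes except Sox1. Body coverage exceeded flank coverage in both fiber libraries at 5 of 6 genes (27.8% of protein-coding genes). In both epithelium libraries it did so at Prox1, Hsf4 and Pitx3, 3 of 6 (11.3%). Genes with an island in the body in both libraries of the compartment numbered 10550 in fibers and 4341 in epithelium. Of these, 6102 and 2473 had the body above the flanks. At Sox1 body and flanks were both at 100% in fibers, and in epithelium the flanks (19% and 24.0%) were more covered than the body. The median of body minus flank over the 6 genes was 33.2 points in fibers and 18.5 points in epithelium, where it was 9.96 points without epithelium replicate 2. Over genes with an island in the body in both libraries of the compartment, it was 9.84 points in fibers and 8.50 points in epithelium. In fiber replicates 1 and 2 it was 22.0 and 27.5 points at Hsf4, 31.1 and 26.0 at Gata3, 35.4 and 40.2 at Prox1, 32.9 and 45.6 at Pitx3, and 55.5 and 73.7 at Foxe3. Flanks were themselves more covered in both fiber libraries than in both epithelium libraries at all 6 genes, against 46.8% of protein-coding genes. The gene start lay in an island in both fiber libraries at all genes but Gata3, 5 of 6, against 31.4%.

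Coverage was followed away from the genes in steps of 5 kb. In fibers the mean over the 6 genes was 78.0% and 74.2% in the first 5 kb upstream, 60.6% and 65.7% in the next, 60.7% and 59.6% from 10 to 15 kb, and 69.4% and 52.2% from 15 to 20 kb upstream. On the downstream side it was 90.7% and 89.6% in the first 5 kb after the gene end, 27.5% and 44.2% in the next 5 kb, 38.2% and 35.1% from 10 to 15 kb, and 46.7% and 26.7% from 15 to 20 kb. In fiber replicate 1 it was thus higher again in the last 2 steps, and in fiber replicate 2 it was not. With flanks of 5 kb in place of 20 kb, the median of body minus flank in fibers was 7.15 points, so that most of the contrast between body and flank lay beyond the first 5 kb. In epithelium the first 5 kb downstream were covered over 8.95% and 47.8%, a difference between replicates larger than any step along the profile of replicate 1.

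**Figure D5:**
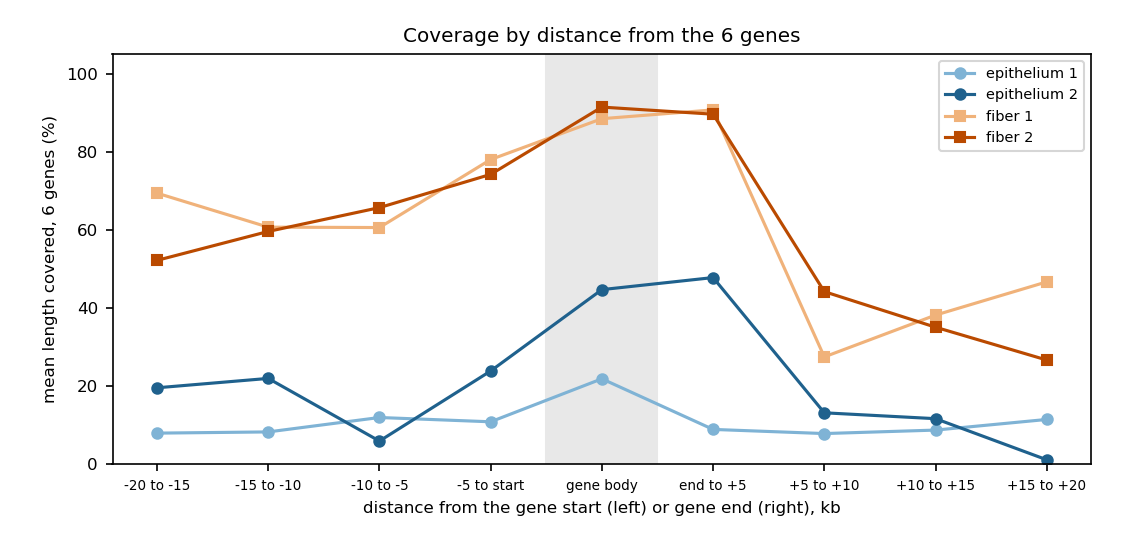
Mean percentage of length covered over the 6 genes in steps of 5 kb upstream of the gene start, over the gene body (grey band) and in steps of 5 kb downstream of the gene end, for each library. Both fiber lines lie above both epithelium lines throughout, and in fibers coverage drops between the first and the second 5 kb downstream.

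Read density did not separate body from flanks to the same degree. The reads of an island are known in total and were spread evenly over its length, so that body and flank have the same density by construction where 1 island spans both, as at Sox1 in fibers. Reads per kb of covered body over reads per kb of covered flank had a median of 1.05 over the 6 genes in fibers. At Prox1 the ratio was 1.30 and 1.13 in epithelium and 1.13 and 1.08 in fibers. Hsf4 had 0.909 and 0.883 in epithelium and 1.08 and 0.982 in fibers. Every flank island of Pitx3 in epithelium replicate 1 also reached into the body. For Pitx3 the ratio was 0.938 and 0.940 in epithelium and 1.18 and 1.25 in fibers. At Gata3, with no flank island in epithelium, it was 0.862 and 1.06 in fibers, so that the replicates lay on both sides of 1. Foxe3 had 1 in epithelium replicate 2 and 1.13 and 1 in fibers, and Sox1 had 1.68 in epithelium replicate 2. Comparing islands that touch the body with islands wholly in the flanks avoids the shared islands. That ratio could be formed in both fiber libraries at Hsf4 (1.07 and 1.03), Pitx3 (1.39 and 1.47) and Gata3 (0.862 and 1.06). In 1 fiber library it was 1.68 at Prox1 and 1.29 at Foxe3.

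Relatives of the 6 genes gave a comparison within the same protein families. Of 13 paralogues, 1 and 4 had an island in the body in epithelium (25.8% and 30.3% of protein-coding genes) and 7 and 8 in fibers (50.8% and 56.7%). Coverage was higher in both fiber libraries at Hsf1, Hsf5 and Foxe1, 3 of 13 (38.4% of protein-coding genes), and lower at 0 (0.775%). The median difference over the 13 was 4.98 points, and over all protein-coding genes it was 2.21 points. Hsf1, the main heat shock factor of stressed cells, was covered over 0%, 7.26%, 73.9% and 66.9%. Foxe1, a forkhead gene of thyroid development, was covered over 0%, 0%, 99.6% and 71.0%. Sox2, the pluripotency and neural progenitor factor that is the close relative of Sox1, had 0% and 100% in epithelium and 90.5% and 48.4% in fibers, so that its groups overlapped. Pitx1, a relative of Pitx3 known from limb and pituitary development, had an island in epithelium replicate 1 alone, over 41.2% of its body. Gata1, Gata6 and Sox3 had none, while Gata5 had 0%, 19.5%, 44.9% and 15.7%. Gata1 and Sox3 lie on chromosome X, where between 0.0961% and 0.206% of islands were called. Without them 3 of 11 paralogues were higher in both fiber libraries, and the median difference was 6.14 points.

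Genes on other chromosomes with the most similar coverage were found by the Euclidean distance over 8 values, the body and flank percentages in the 4 libraries. For Prox1 these were Hspb2 (distance 11.5 points), a small heat shock protein gene, and Dtx3 (16.3). Hsf4 was nearest to Btbd6 (12.8) and Sipa1l3 (16.7). Next to Pitx3 stood Smarcd1 (16.2), a chromatin remodelling subunit, and Ptprf (16.9), a receptor tyrosine phosphatase. Gata3 was nearest to Nsd2 (11.5), a histone methyltransferase, and Zxdc (12.7). The nearest to Sox1 were Cks1b (24.6) and Mecr (27.7), farther away than the nearest genes of the other 5. For Foxe3 they were Scand1 (10.1) and Fzd9 (11.1), both short genes that were also covered over 0%, 100%, 100% and 100% in the 4 libraries.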

How the data were processed

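H3.3 ChIP-seq of 2 epithelium and 2 fiber libraries was used. BWA (aln, samse, defaults) placed the 75-nt single-end reads on mm10, and SICER2 called the islands of every library separately. The names of the lists give windows of 200 bp, gaps of 600 bp and an FDR of 0.01. The deposited values are read counts per island, which the authors did not normalize. Duplicate removal and the use of the pooled input are not given in the sources used here, and tool versions are not given either.

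Covered length and reads (spread evenly over each island) were computed for gene bodies of GENCODE M21 and flanks of 20 kb, with a minimum overlap of 1 bp, using numpy 2.4.6, scipy 1.17.1 and matplotlib 3.10.9 under Python 3.11.15. Covered lengths of 21938 gene bodies in 4 libraries were checked against bedtools 2.31.1, with 0 of 87752 different, and the steps were tested on simulated data. A gene was counted as higher where both fiber values exceeded both epithelium values. Exact two-sided permutation tests were run per gene. Benjamini-Hochberg adjusted p over all genes was 0.852 for bodies and 0.701 for flanks at each of Prox1, Hsf4, Pitx3, Gata3 and Sox1.

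The 6 genes, the lists and the markers were chosen with earlier results of these data known. Named genes were the 6, genes in or overlapping their flanks, 13 paralogues, the markers, and the 2 genes most similar to each. Some genes of these lists are not reported here. The replicates are biological according to the labels. The number of libraries limits the precision, and no interval or detection floor was computed, since depth is unknown. Whole-genome bisulfite data and the input sample were not used here.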

Additional observations from a re-analysis of the deposited data

Results flagged for a closer look

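Among the fiber differentiation genes examined, Pitx3 was flagged on 2 measures. On each, both libraries of one compartment fell on the opposite side from both libraries of the other. The share of all protein-coding genes with such a pattern was not computed for either measure. Whether Pitx3 is unusual in this among all genes was therefore not tested. The difference between compartments was not tested in either case, since 2 libraries against 2 cannot reach a p of 0.05. Upstream minus downstream flank coverage was -7.05 and -18.1 points in epithelium and 51.6 and 48.0 points in fibers, a difference of the means of 62.3 points. Reads per kb of covered body over covered flank were 0.938 and 0.940 in epithelium and 1.18 and 1.25 in fibers, a difference of 0.276. In epithelium replicate 1 every flank island also reached into the body, so that this value compares parts of the same islands. Body islands against islands wholly in the flanks gave 1.06 in epithelium replicate 2 and 1.39 and 1.47 in fibers. On that measure, which could not be formed in epithelium replicate 1, no library lay below 1. The upstream flank holds Gbf1, a gene on the other strand, and its part in either value was not tested. No group had the 4 libraries needed to look for a library that stands apart.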

How the results depend on the processing

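The number of genes more covered in both fiber libraries was 5, and between 4 and 6 under the 13 alternatives run. With 10389 islands taken from each library, it was 4 for the densest islands (13.2% of protein-coding genes) and 5 for those with the most reads (17.9%). With the densest islands the Gata3 difference changed direction, to -5.77 points. This change rests on 1 island of epithelium replicate 1, whose list was not cut at that number. Foxe3 depended on 1 library, as given above.

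The median difference in body coverage, 47.5 points, was 40.3 to 65.9 when each library was left out, highest without epithelium replicate 2. It was 80.8 with islands of at least the median density, 65.9 with equal numbers of the densest islands, and 73.8 with islands that overlap the other replicate. Body minus flank in fibers, 33.2 points, was 32.0 to 33.9 on leaving out a library, 37.9 and 42.6 with equal numbers by density and by reads, 7.15 with flanks of 5 kb, 43.5 with flanks of 50 kb, 35.2 without other coding genes, 35.5 with an overlap of 50%, and 34.8 with RefSeq bodies, an alternative chosen after seeing the data. In epithelium, 18.5 points became 9.96 to 18.5 on leaving out a library, lowest without epithelium replicate 2. It was 5.80 at the median density, 9.53 and 9.34 with equal numbers by density and by reads, 4.27 with islands that overlap the other replicate, 10.4 with flanks of 5 kb and 12.7 with an overlap of 50%. The density ratio of 1.05 in fibers was 1.03 to 1.11 on leaving out a library and 1.29 for body islands against islands wholly in the flanks, also chosen after seeing the data. The length ratio of 5.56 was 5.00 to 6.25 on leaving out a library, 7.70 at the median density, 7.02 with equal numbers of the densest islands, 7.42 with islands within 1 kb merged and 6.65 with islands that overlap the other replicate. The cause of these shifts was not tested.

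Over 13391 genes, deviations of libraries with the same replicate number had a correlation of -0.00722. With 2 libraries per compartment, this single value cannot show whether libraries with the same number came from the same lenses. With the replicate block, the median difference was 47.5 points, the count 5 and the length ratio 5.67.

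Depth sets what an island list can show. An uncovered gene has no called island, which is not a measurement of absent H3.3, and the fiber lists are longer over the whole genome.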
